A study of Mus musculus with 4 samples.

Results

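The BCL2 family, caspase and survival genes described here are 31 genes chosen by name, out of 27179 genes in the table: pro-survival and pro-death members of the BCL2 family, caspases, and the inhibitors that act on caspases. All 31 were found by gene symbol. RNA was sequenced from lymphoid tissue inducer (LTi) cells, which belong to the innate lymphoid cells and carry lymphotoxin, after sorting from small intestinal lamina propria of C57BL/6 mice. There were 2 libraries of Gata3fl/fl-VavCre mice, labelled Gata3-KO, and 2 libraries of Gata3+/+ mice, labelled Ctrl. Cre under the Vav promoter is made in blood cells in general, so the floxed gene, which codes for the transcription factor GATA3, can be deleted in other lymphocytes too. The sort took live lineage-negative cells with CD127 and CCR6 on their surface and without KLRG1, NK1.1 and NKp46. The labels give no age, do not say whether Ctrl mice carry VavCre, and do not give the animal behind each replicate, so p-values measure only the spread between these libraries, which may be technical.

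Apoptosis through mitochondria is governed by interactions within the BCL2 family. Pro-survival proteins hold the pore-forming effectors in check, BH3-only proteins bind and neutralise the pro-survival proteins or activate the effectors, and open pores release cytochrome c, which assembles APAF1 and caspase 9 into the apoptosome. Initiator caspases then cleave executioner caspases, while the inhibitor of apoptosis proteins (IAPs) restrain caspases or survival signalling complexes. In lymphocytes, cytokines such as IL-7 sustain survival largely through BCL2 and MCL1, against the BH3-only protein BIM, the product of Bcl2l11.

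Library totals were 24315878 and 23973995 reads in Gata3-KO and 14294708 and 12670034 reads in Ctrl. Gata3 itself stood at 34.5 and 23.3 RPKM (reads per kilobase of gene, scaled to library total) in Gata3-KO libraries, against 84.3 and 50.7 RPKM in Ctrl libraries. The genotypes did not overlap, but the log2 difference of −1.18 ± 0.36 (SE) missed the threshold (adjusted p = 0.0901, limma). All 12 LTi markers, among them Il7r, Ccr6 and Kit, had reads in every library, and their summed level was 1282 and 1537 RPKM in Gata3-KO, against 1883 and 1326 RPKM in Ctrl. With median-ratio scaling, described next, the LTi sum was 1093 and 1192 in Gata3-KO, against 2189 and 1725 in Ctrl, so both Gata3-KO libraries then lay lower. On the scale of the deposited values the median of all tested genes was 0.43 log2 units higher in Gata3-KO, and after division by median-ratio size factors, which centre the typical gene, it was 0.04. Differences are log2 differences of RPKM + 1, which understate the change of low genes, and are given on the deposited scale unless stated otherwise.

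Of 30 tested members, 6 were higher in Gata3-KO by limma's test (Benjamini-Hochberg adjusted p under 0.05): the effectors Bok and Bak1, the BH3-only genes Pmaip1 and Bid, and the caspases Casp6 and Casp2. No member was called lower. By class these were 2 of 3 effectors, 2 of 7 tested BH3-only genes and 2 of 4 apoptotic caspases, with none in the other classes. With 1 library left out in turn, the differences of these 6 lay between 1.26 and 2.99. Their direction could not change there, since both Gata3-KO libraries lay above both Ctrl libraries for each of them. The share of members higher was 20%, against 8.35% of all 14223 tested genes that were higher and 0.689% that were lower (9.03% in either direction). After median-ratio scaling limma called none of the 30 members, and 8 had an unadjusted p under 0.05. With that scaling limma-voom on recovered reads called no member, against 0.19% of all genes higher and 0.45% lower, and 9 members had an unadjusted p under 0.05. Without it limma-voom also called no member, against 1.55% of all genes (1.3% higher), and 13 members had an unadjusted p under 0.05. Among all tested genes, median-ratio scaling left 0.605% called higher and 0.436% called lower in limma, and 22.7% were at an unadjusted p under 0.05, against 26.7% of members. Both Gata3-KO libraries lay above both Ctrl libraries for 22 of 30 members (73.3%) on the deposited scale, against 54% of all tested genes. After median-ratio scaling this held for 12 members (40%), against 29.7% of all tested genes. With that scaling 6 members (20%) were lower in both Gata3-KO libraries, against 25.6% of all tested genes. The median difference of the members was 0.67, and 0.24 relative to the median tested gene.

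**Figure D1:**
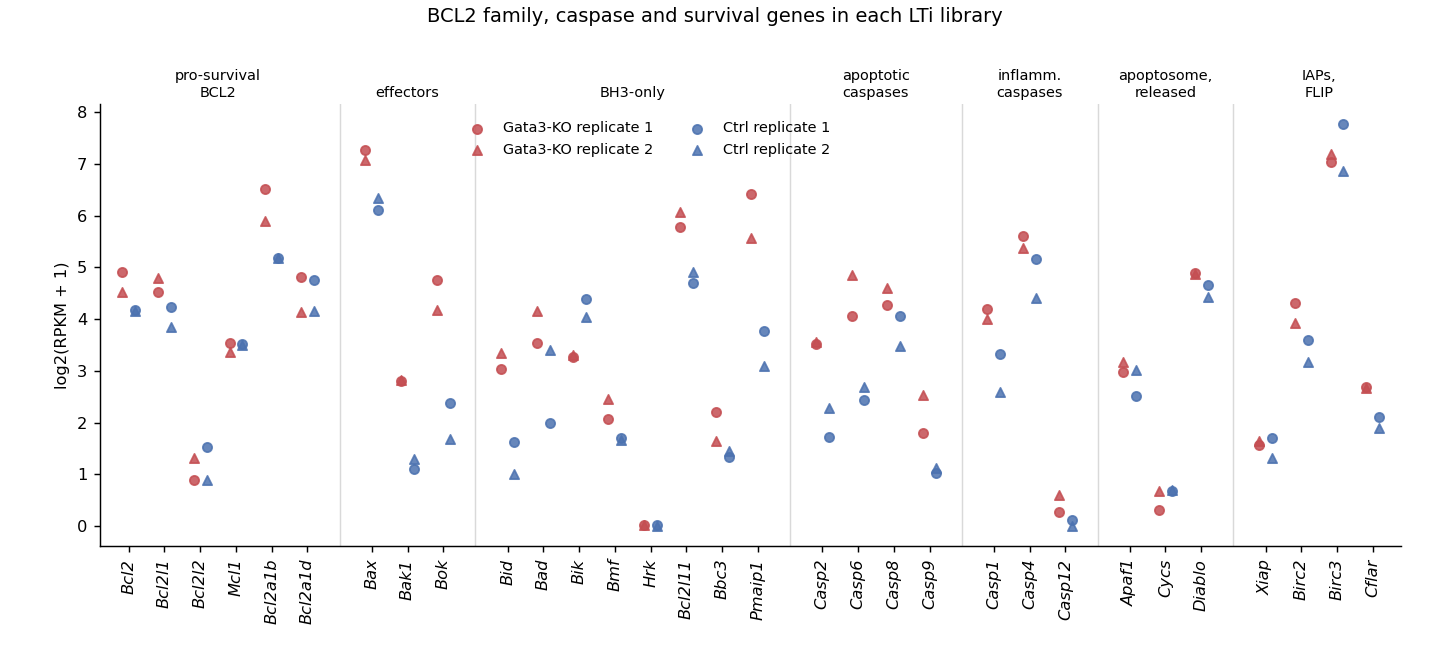
Level of each member in each library as log2(RPKM + 1), with Gata3-KO (red) left of Ctrl (blue) and a symbol per replicate, by class. Bok, Bak1, Bid, Pmaip1, Casp2 and Casp6 are among 22 members that lie higher in both Gata3-KO than in both Ctrl libraries. The pro-survival Bcl2, Bcl2l1 and Bcl2a1b are too, and 54% of all tested genes hold this order. Bik and Cycs lie lower, and the genotypes overlap for Mcl1, Bcl2l2, Bcl2a1d, Xiap, Apaf1, Birc3 and Hrk.

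Markers of other cells moved with the genotype too. The summed level of 12 B and plasma cell markers, led by Jchain and Ighm, was 4242 and 2615 RPKM in Gata3-KO, against 523 and 675 RPKM in Ctrl, and 10 of the 12 were called higher on the deposited scale. For 12 epithelial markers, led by Krt8 and Krt19, it was 1956 and 2989 RPKM in Gata3-KO, against 514 and 311 RPKM in Ctrl, with 9 called higher. The sum of 12 T cell markers, led by Lat and Trbc2, was 828 and 496 RPKM in Gata3-KO. In Ctrl it was 278 and 172 RPKM, and 5 of the 12 were called higher. For others of this list the genotypes overlapped. Cd3d was at 62.0 and 2.35 RPKM in Gata3-KO, against 2.58 and 3.86 RPKM in Ctrl. Trac was at 76.1 and 11.4 RPKM in Gata3-KO, against 17.7 and 19.2 RPKM in Ctrl. All 36 markers of the B and plasma cell, epithelial and T cell lists had reads in every library. Of 12 myeloid markers 4 were called higher, at a sum of 118 and 258 RPKM in Gata3-KO against 70.8 and 80.2 RPKM in Ctrl, with Itgam and Clec10a at 0 in at least 1 Ctrl library. After median-ratio scaling limma called 1 of the B and plasma cell, 4 of the epithelial, 1 of the T cell and 1 of the myeloid markers higher. None of 8 tested stromal and endothelial markers was called, with Pdgfra, Cdh5 and Kdr at 0 in at least 1 library. Bok, Bak1, Bid, Pmaip1, Casp2 and Casp6 rose in the same libraries as these markers, and the part of other cells in their rise was not tested. In such bulk samples, a change in the number of cells of a type and a change of RNA per cell cannot be told apart.

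**Figure D2:**
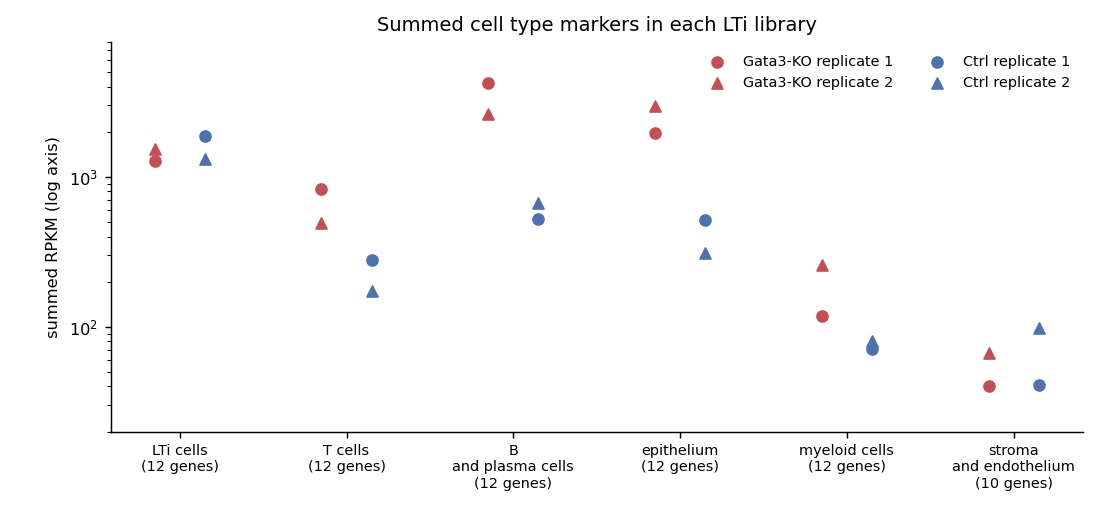
Summed RPKM (log axis) of the markers of each cell type in each library, with Gata3-KO (red) left of Ctrl (blue) and a symbol per replicate. Sums of T cell, B and plasma cell, epithelial and myeloid markers lie higher in both Gata3-KO libraries. For B and plasma cells they are 4242 and 2615 RPKM in Gata3-KO against 523 and 675 RPKM in Ctrl. LTi sums overlap on this scale and are lower in both Gata3-KO libraries after median-ratio scaling, where myeloid sums overlap.

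The pro-survival genes did not pass the test in either direction. Bcl2, which guards lymphocytes downstream of cytokine receptors, was at 29.1 and 22.0 RPKM in Gata3-KO and 17 and 16.7 RPKM in Ctrl libraries. Bcl2l1, which codes for BCL-XL, was at 22.1 and 26.8 RPKM in Gata3-KO and 17.9 and 13.5 RPKM in Ctrl. Both genes lay above the Ctrl libraries in both Gata3-KO libraries, by 0.56 ± 0.28 (adjusted p = 0.231, limma) and 0.62 ± 0.29 (adjusted p = 0.207, limma) log2 units, close to the shift of the median gene. After median-ratio scaling their differences were −0.01, with a 95% interval of −0.70 to 0.68, and 0.05, with an interval of −0.54 to 0.64, and the genotypes overlapped.

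Mcl1, a short-lived protein's gene on which many lymphocytes depend, had the most even values among the pro-survival genes, at 10.7 and 9.23 RPKM in Gata3-KO and 10.5 and 10.3 RPKM in Ctrl libraries. Its difference was −0.06 on the deposited scale, with a 95% interval of −0.74 to 0.62. It became −0.60 ± 0.26 after median-ratio scaling (adjusted p = 0.252, limma), where both Gata3-KO libraries lay below both Ctrl libraries. Bcl2l2, which codes for BCL-W and shares 595 bases of transcript with Gm20521, was low in all libraries, at 0.844 and 1.47 RPKM in Gata3-KO and 1.88 and 0.844 RPKM in Ctrl.

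Bcl2a1b and Bcl2a1d are mouse copies of the gene for A1, a pro-survival protein of blood cells induced by NF-κB. Bcl2a1b stood at 91.1 and 58.9 RPKM in Gata3-KO and 35.3 and 35.4 RPKM in Ctrl libraries, and Bcl2a1d at 27.1 and 16.5 RPKM in Gata3-KO and 25.9 and 16.8 RPKM in Ctrl libraries. Bcl2a1b was higher in both Gata3-KO libraries, by 1.03 ± 0.31 (adjusted p = 0.0852, limma), whereas the genotypes overlapped for Bcl2a1d (0.02 ± 0.36). After median-ratio scaling the genotypes overlapped for both genes. The differences were then 0.45 ± 0.31 (adjusted p = 0.453, limma) for Bcl2a1b and −0.55 ± 0.36 for Bcl2a1d. The annotated transcripts of both genes are 99.1% identical over 817 bases and also match Bcl2a1a closely, and how multi-mapping reads were treated is not stated, so the split of reads between the copies is uncertain. Within a library, Bcl2a1b stood at 3.36 and 3.57 times Bcl2a1d in Gata3-KO, against 1.36 and 2.11 times in Ctrl.

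Bok and Bak1 rose among the 3 pore-forming effectors. Bok (Entrez 51800, chromosome 1: 93685575 to 93695770, GRCm38), an effector that, unlike BAX and BAK, is little restrained by pro-survival proteins, was at 26.1 and 17.1 RPKM in Gata3-KO and 4.20 and 2.20 RPKM in Ctrl libraries. The lower Gata3-KO library was thus far above the higher Ctrl library, and the difference was 2.44 ± 0.38 (adjusted p = 0.0236, limma). Bak1 (Entrez 12018, chromosome 17: 27019812 to 27028627), whose protein BAK sits in the outer mitochondrial membrane, was at 5.98 and 6.06 RPKM in Gata3-KO and 1.15 and 1.46 RPKM in Ctrl libraries. The replicates of each genotype were close to each other, and the difference was 1.61 ± 0.32 (adjusted p = 0.0358, limma).

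Bax was by far the most abundant effector, at 154 and 134 RPKM in Gata3-KO and 68.5 and 79.7 RPKM in Ctrl libraries. It made up 82.8% and 85.2% of the summed RPKM of the 3 effectors in Gata3-KO, against 92.8% and 95.6% in Ctrl. Bax was higher in both Gata3-KO libraries on both scales, by 0.95 ± 0.27 (adjusted p = 0.0759, limma) as deposited and 0.36 ± 0.25 with median-ratio scaling, and passed the test on neither. After median-ratio scaling Bok differed by 1.93 ± 0.38 (adjusted p = 0.0805, limma) and Bak1 by 1.18 ± 0.30 (adjusted p = 0.113, limma), and all 3 effectors stayed higher in both Gata3-KO libraries, an order held by 29.7% of all tested genes.

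Among the BH3-only genes Pmaip1 and Bid rose. Pmaip1 (Entrez 58801) codes for NOXA, which binds MCL1 and A1 and is a target of p53. It was at 85.1 and 46.6 RPKM in Gata3-KO and 12.7 and 7.55 RPKM in Ctrl libraries. Both Gata3-KO libraries lay far above both Ctrl libraries, and the difference was 2.56 ± 0.40 (adjusted p = 0.0236, limma). Set against Mcl1 in the same library, Pmaip1 stood at 7.98 and 5.05 times its RPKM in Gata3-KO, against 1.21 and 0.735 times in Ctrl.

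Bid (Entrez 12122, chromosome 6: 120893119 to 120917062), which links death receptors to mitochondria once caspase 8 has cleaved its product, was at 7.22 and 9.18 RPKM in Gata3-KO and 2.07 and 1.00 RPKM in Ctrl libraries. All Gata3-KO values lay above the Ctrl values, and the difference was 1.88 ± 0.37 (adjusted p = 0.0347, limma). After median-ratio scaling Pmaip1 differed by 2.00 ± 0.41 (adjusted p = 0.0822, limma) and Bid by 1.44 ± 0.33 (adjusted p = 0.0973, limma).

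GATA3 binds a short DNA core, and the sequences before the start of Bid, a called member, and of Birc3, the most abundant member, show matches to it. The letters GATA with A or T before them and A or G after them were searched on both strands in 300 bases, from 250 before to 50 after the start in RefSeq (GRCm38.p6). They occur in 9 of 29 members with a promoter in the table (31.03%) and in 33.0% of 27025 genes, and among 5 called members with a promoter in 1, Bid. Both sequences are printed 5′ to 3′ on the gene's strand, which is the minus strand, with the match in capitals. That of Bid is the 30 bases around its match, at chr6:120916855-120916884, with CTATCA, the reverse complement of TGATAG, beginning 42 bases before the start used in the table, although the annotated span of the gene begins further upstream. That of Birc3, at chr9:7873201-7873420, runs from 250 to 30 bases before the start, with TGATAA beginning 226 bases before it. The annotated span of Birc3 also begins further upstream than the start used, at base 7873205, so the last printed bases lie inside it.
Bid: agcatccggagggcggggCTATCAcagggg
Birc3: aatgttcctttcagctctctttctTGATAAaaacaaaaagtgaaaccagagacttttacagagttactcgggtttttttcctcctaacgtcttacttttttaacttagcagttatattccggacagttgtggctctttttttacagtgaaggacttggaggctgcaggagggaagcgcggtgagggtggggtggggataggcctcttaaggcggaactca
The share among members is close to that among all genes, and a match of letters is a description and does not show binding.

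Bik (Entrez 12124, chromosome 15: 83526790 to 83544635), a BH3-only gene whose protein resides in the endoplasmic reticulum, was the member with the most negative difference. It was at 8.59 and 8.89 RPKM in Gata3-KO and 20.03 and 15.4 RPKM in Ctrl libraries, below Ctrl in both Gata3-KO libraries. The difference was −0.93 ± 0.29 (adjusted p = 0.0944, limma) on the deposited scale and −1.48 ± 0.24 (adjusted p = 0.0626, limma) after median-ratio scaling, so Bik passed the test on neither. On the deposited scale, 7.58% of all tested genes were lower in both Gata3-KO libraries, and 2 of 30 members were, Bik and Cycs.

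Bcl2l11 was the most abundant BH3-only gene in Ctrl cells. It was at 54.1 and 66.3 RPKM in Gata3-KO and 25.0 and 29.1 RPKM in Ctrl libraries, higher in both Gata3-KO libraries on both scales. Its difference of 1.12 ± 0.27 narrowly missed the threshold (adjusted p = 0.0542, limma), passed it when only genes above 5 CPM were tested (adjusted p = 0.0329, limma), and was 0.54 ± 0.24 after median-ratio scaling (adjusted p = 0.257, limma). The other BH3-only genes did not pass. Bad, whose product survival kinases switch off by phosphorylation, was at 10.7 and 16.9 RPKM in Gata3-KO and 2.99 and 9.57 RPKM in Ctrl libraries, and its annotated transcripts share a stretch of 519 bases with the gene Gpr137, so part of its reads cannot be assigned with certainty. Bmf, whose product binds pro-survival proteins after release from the cytoskeleton, lay between 3.21 and 4.47 RPKM in Gata3-KO and 2.18 and 2.25 RPKM in Ctrl libraries, and Bbc3, which codes for the p53 target PUMA, between 2.13 and 3.62 RPKM in Gata3-KO and 1.52 and 1.72 RPKM in Ctrl libraries. Hrk, a BH3-only gene known mainly from neurons, had 1 and 1 reads in Gata3-KO and 1 and 0 reads in Ctrl libraries, under the filter for testing and under the 3 reads that a count of 0 allows, so no difference was detectable at this depth.

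**Figure D3:**
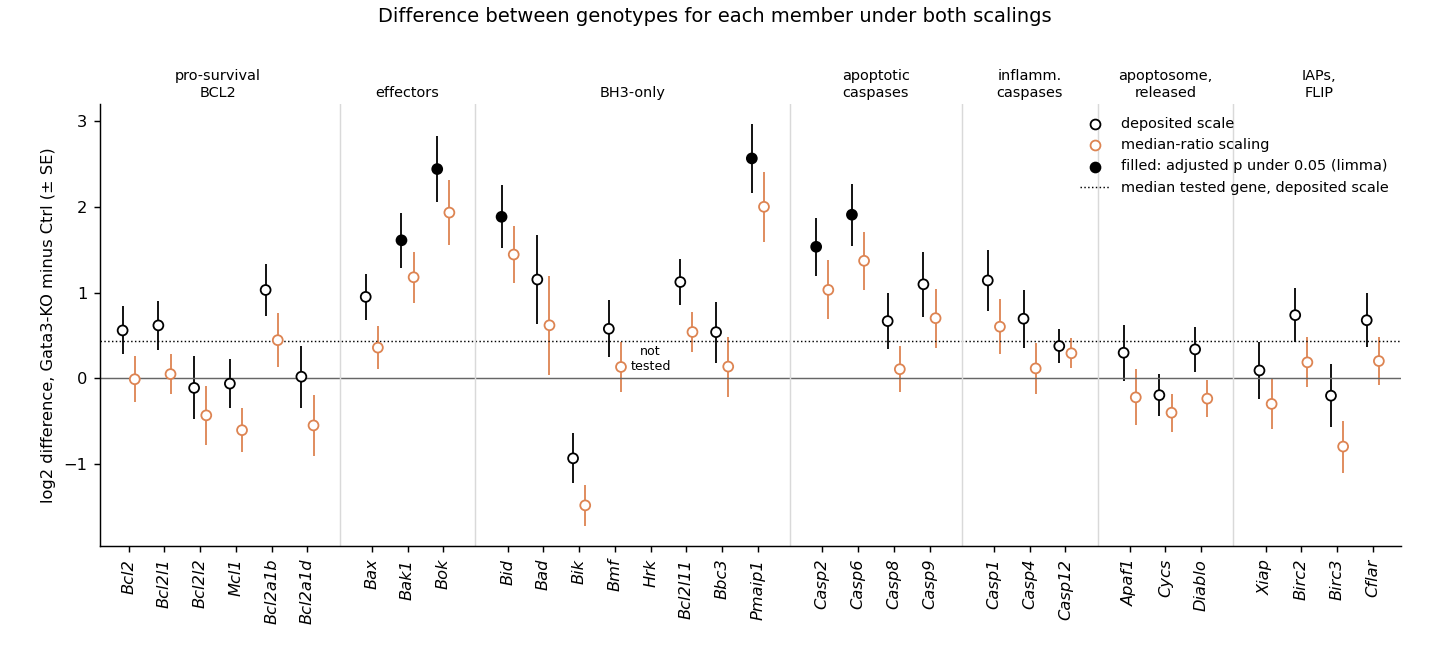
Log2 difference (Gata3-KO minus Ctrl, ± SE) of each member as deposited (black) and with median-ratio scaling (orange), with filled points for an adjusted p under 0.05 in limma. The 6 filled points are on the deposited scale, lie above the dotted line at 0.43 that marks the median tested gene, and lie in the effector, BH3-only and apoptotic caspase classes.

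Casp6 and Casp2 rose among the 4 apoptotic caspases. Casp6 (Entrez 12368, chromosome 3: 129901415 to 129914112), an executioner caspase, was at 15.8 and 28.0 RPKM in Gata3-KO and 4.38 and 5.42 RPKM in Ctrl libraries. Casp2 (Entrez 12366, chromosome 6: 42264902 to 42282508), an initiator caspase activated in the PIDDosome, was at 10.4 and 10.7 RPKM in Gata3-KO and 2.30 and 3.85 RPKM in Ctrl libraries. The Gata3-KO libraries lay above the Ctrl libraries for both genes, with differences of 1.91 ± 0.36 (adjusted p = 0.0341, limma) and 1.53 ± 0.34 (adjusted p = 0.0452, limma). After median-ratio scaling the differences were 1.37 ± 0.34 (adjusted p = 0.108, limma) for Casp6 and 1.03 ± 0.34 (adjusted p = 0.175, limma) for Casp2.

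Casp9, the caspase of the apoptosome, was at 2.49 and 4.82 RPKM in Gata3-KO and 1.04 and 1.17 RPKM in Ctrl libraries. Casp8, the initiator caspase of death receptors, was at 18.3 and 23.2 RPKM in Gata3-KO and 15.7 and 10.1 RPKM in Ctrl libraries. Neither passed the test (adjusted p = 0.116 for Casp9 and 0.221 for Casp8, limma). Casp9 stayed higher in both Gata3-KO libraries after median-ratio scaling, by 0.70 ± 0.34, while Casp8 then differed by 0.11 ± 0.27 and the genotypes overlapped.

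The genes of the inflammatory caspases, Casp1, Casp4 and Casp12, lie side by side on chromosome 9. Casp1 was at 17.4 and 14.97 RPKM in Gata3-KO and 9.06 and 5.01 RPKM in Ctrl libraries, and Casp4, the mouse sensor of cytosolic lipopolysaccharide often called caspase 11, at 47.5 and 40.5 RPKM in Gata3-KO and 35.0 and 20.3 RPKM in Ctrl libraries. Both were higher in both Gata3-KO libraries, by 1.14 ± 0.35 (adjusted p = 0.0926, limma) and 0.70 ± 0.34 (adjusted p = 0.217, limma), and neither passed. On the deposited scale 54% of all tested genes held this order. After median-ratio scaling Casp1 stayed higher in both Gata3-KO libraries, by 0.60 ± 0.32. Casp4 then differed by 0.12 ± 0.30 and the genotypes overlapped. Casp12 had 13 and 32 reads in Gata3-KO and 3 and 0 reads in Ctrl libraries, too few for a firm value in Ctrl.

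The apoptosome genes and the factors released from mitochondria all differed by less than the shift of the median gene on the deposited scale. Apaf1 was at 6.83 and 7.96 RPKM in Gata3-KO and 4.74 and 7.08 RPKM in Ctrl libraries, and the genotypes overlapped. Diablo, which codes for the IAP antagonist SMAC, was at 28.7 and 28.5 RPKM in Gata3-KO and 24.4 and 20.6 RPKM in Ctrl libraries. Its direction depends on the scale, with a difference of 0.34 ± 0.26 as deposited and −0.24 ± 0.21 after median-ratio scaling. Cycs, the cytochrome c gene, had only 18 and 43 reads in Gata3-KO and 26 and 24 reads in Ctrl libraries. It shares 946 bases at 99.9% identity with the annotated copy Gm10053 and at least 300 bases with other copies, so its level here is uncertain.

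Birc3, the gene of cIAP2, an NF-κB target that ubiquitinates proteins in TNF receptor complexes, was the most abundant of the 31 genes, with a mean over all libraries of 153 RPKM, above 97.3% of tested genes. It was at 131 and 146 RPKM in Gata3-KO and 218 and 116 RPKM in Ctrl libraries. The Ctrl replicates lay on either side of the Gata3-KO libraries, and the difference was −0.20 ± 0.37 (adjusted p = 0.748, limma). After median-ratio scaling it was −0.79 ± 0.30 (adjusted p = 0.215, limma), with both Gata3-KO libraries below both Ctrl libraries, an order held by 25.6% of all tested genes. Its annotated transcripts share 369 bases at 99.2% identity with the pseudogene Gm7019. Its neighbour on chromosome 9, Birc2 (cIAP1), was at 18.7 and 14.3 RPKM in Gata3-KO and 11.1 and 7.97 RPKM in Ctrl libraries, so Birc3 stood at 6.97 and 10.2 times Birc2 in Gata3-KO, against 19.6 and 14.6 times in Ctrl.

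Cflar, whose product FLIP blocks caspase 8 at death receptors, was at 5.42 and 5.39 RPKM in Gata3-KO and 3.32 and 2.71 RPKM in Ctrl libraries. It was higher in both Gata3-KO libraries on both scales, by 0.68 ± 0.31 as deposited (adjusted p = 0.202, limma) and 0.20 ± 0.27 after median-ratio scaling. Xiap, the IAP that inhibits caspases directly, was at 1.97 and 2.10 RPKM in Gata3-KO and 2.24 and 1.49 RPKM in Ctrl libraries. Its difference of 0.09 ± 0.33 became −0.30 ± 0.30 after median-ratio scaling. Stretches of annotated transcript are also shared by Cflar with the pseudogene Gm9845 (598 bases), by Diablo with Gm49027 (1204 bases) and by Bcl2 with the antisense gene D630008O14Rik (498 bases), so reads there cannot be assigned with certainty.

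Ratios within a library do not depend on how libraries are scaled to each other, and were therefore formed from the summed RPKM of the classes. These ratios were chosen after the values had been seen and carry no test, since 2 libraries against 2 allow no exact two-sided p below 0.333. Summed BH3-only genes stood at 0.954 and 1.14 times the pro-survival genes in Gata3-KO, against 0.614 and 0.711 times in Ctrl. Without Pmaip1 the genotypes overlapped, at 0.484 and 0.799 in Gata3-KO and 0.497 and 0.63 in Ctrl, so the separation rested on that gene. The 3 effectors stood at 1.03 and 1.16 times the pro-survival genes in Gata3-KO, against 0.681 and 0.891 times in Ctrl. Bok and Bak1 without Bax stood at 0.177 and 0.172 times in Gata3-KO, against 0.0494 and 0.0392 times in Ctrl. Pmaip1 and Bid in the BH3-only sum, and Bok and Bak1 in both effector sums, had been called higher from the same values. None of these separations is therefore independent support, and the last only restates the rise of Bok and Bak1.

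The 4 apoptotic caspases stood at 0.30 and 0.397 times the sum of the IAPs and Cflar in Gata3-KO, against 0.0999 and 0.16 times in Ctrl. Birc3 made up 83.3% and 87.1% of the IAP and Cflar sum in Gata3-KO and 92.9% and 90.5% in Ctrl. Without Birc3 the ratio was 1.80 and 3.07 in Gata3-KO and 1.41 and 1.69 in Ctrl, which did not overlap. The caspase sum keeps Casp6 and Casp2, which had been called higher from the same values, so this separation is no independent support. Of the pro-survival sum, Bcl2a1b made up 50.4% and 43.6% in Gata3-KO, against 32.5% and 37.9% in Ctrl.

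**Figure D4:**
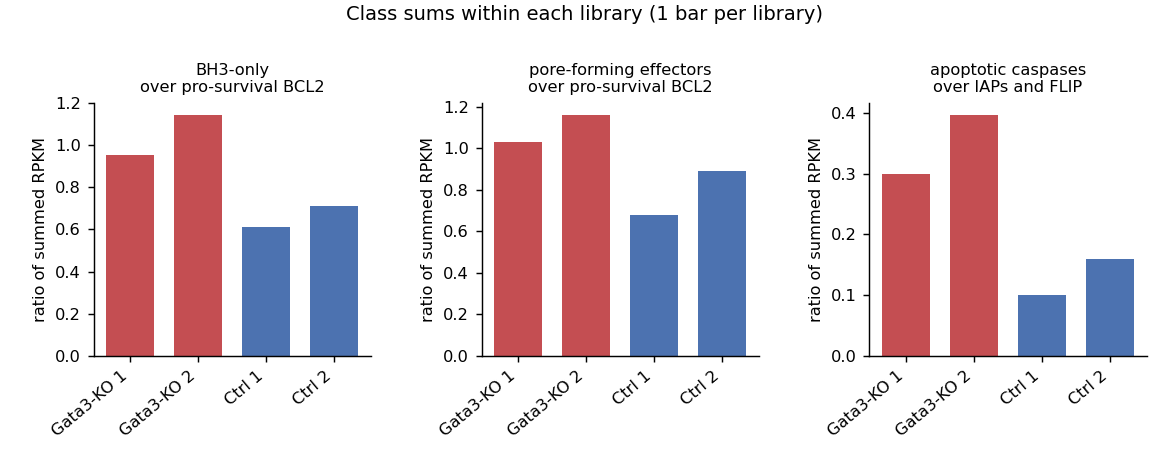
Ratio of the summed RPKM of one class to that of another within each library, 1 bar per library, Gata3-KO in red and Ctrl in blue. Both Gata3-KO bars are higher than both Ctrl bars in each panel, for example 0.30 and 0.397 in Gata3-KO against 0.0999 and 0.16 in Ctrl for apoptotic caspases over IAPs and FLIP. The class on top of each ratio holds members called higher from the same values.

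Other genes of cell death were counted over lists of related pathways, in which 9 of 61 tested genes (14.8%) rose and 1 fell, against 8.35% of all tested genes called higher and 0.689% called lower. After median-ratio scaling limma called none of the 61 higher and 1 lower, against 0.605% of all tested genes higher and 0.436% lower. With that scaling 25 of the 61 (41.0%) were at an unadjusted p under 0.05, against 22.7% of all tested genes. Of 11 tested genes of necroptosis and pyroptosis, 5 rose and 1 fell. Pycard, the inflammasome adaptor ASC, was at 64.8 and 62.4 RPKM in Gata3-KO and 11.5 and 14.4 RPKM in Ctrl libraries. Mlkl, the executioner of necroptosis, was at 3.43 and 2.65 RPKM in Gata3-KO and 0.0822 and 0.0464 RPKM in Ctrl libraries. The Ctrl values of Mlkl rest on 2 and 1 reads, too few for a firm value. Zbp1, a sensor of Z-form nucleic acid, was at 18.5 and 18.5 RPKM in Gata3-KO and 3.75 and 6.83 RPKM in Ctrl libraries. Nlrc4, an inflammasome sensor of flagellin, and Il18, a cytokine matured by caspase 1, rose by 1.78 ± 0.32 (adjusted p = 0.0313, limma) and 1.44 ± 0.33 (adjusted p = 0.048, limma). The Ctrl values of Il18 rest on only 6 and 9 reads.

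Nlrp3, the sensor of the best-known inflammasome, fell to 0.266 and 1.43 RPKM in Gata3-KO libraries, against 17.1 and 9.99 RPKM in Ctrl libraries. Its difference was −3.01 ± 0.46 (adjusted p = 0.0228, limma), and it was the only gene of the related lists that limma also called after median-ratio scaling (−3.41, adjusted p = 0.0467). With limma-voom and median-ratio scaling its adjusted p was 0.0591. Pycard differed by 2.22 ± 0.27 (adjusted p = 0.0165, limma), and by 1.64 after median-ratio scaling (adjusted p = 0.0609, limma).

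Among 13 other caspases, IAPs and mitochondrial factors 3 rose (23.1%, against 8.35% of all tested genes), Birc5 and Aifm1 among them. Birc5, the IAP family member survivin, which acts in mitosis, was at 2.74 and 3.05 RPKM in Gata3-KO and 0.184 and 0.0924 RPKM in Ctrl libraries. Its Ctrl values rest on 9 and 4 reads, too few for a firm value. The difference was 1.78 ± 0.30 (adjusted p = 0.0271, limma). Aifm1, a mitochondrial flavoprotein that can move to the nucleus in cell death, was at 12.1 and 18.2 RPKM in Gata3-KO and 4.73 and 5.19 RPKM in Ctrl libraries, a difference of 1.41 ± 0.32 (adjusted p = 0.0491, limma). Neither was called after median-ratio scaling. Of 10 tested genes of p53 and its targets, 1 rose, a share close to the 8.35% of all tested genes: Perp, a target that also builds desmosomes in epithelium, was at 13.8 and 17.2 RPKM in Gata3-KO and 2.91 and 2.62 RPKM in Ctrl libraries, a difference of 2.13 ± 0.30 (adjusted p = 0.0205, limma).

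None of 12 death receptor, ligand and adaptor genes and none of 15 genes of survival cytokine signalling was called by limma, and neither list held a gene that limma-voom called on the deposited scale. Before adjustment 2 death receptor genes (16.7%) and 3 cytokine signalling genes (20%) had a p under 0.05, against 30.5% of all tested genes. After median-ratio scaling 3 death receptor genes (25%) and 6 cytokine signalling genes (40%) did, against 22.7% of all tested genes. With that scaling 7 of the 15 cytokine signalling genes (46.7%) were lower in both Gata3-KO libraries, against 25.6% of all tested genes. The median differences of the death receptor and cytokine signalling lists relative to the median tested gene were −0.20 and −0.10. Il2rb, the receptor chain shared by IL-2 and IL-15 and chosen after its values had been seen, was at 497 and 592 RPKM in Gata3-KO and 970 and 933 RPKM in Ctrl libraries. It was not called by limma on either scale (adjusted p = 0.141 as deposited and 0.0599 after median-ratio scaling), and was called lower by limma-voom with median-ratio scaling (adjusted p = 0.0473).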

How the data were processed

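RNA was extracted with the miRNeasy Micro kit and libraries were made by Smart-seq2, per the labels' protocols. Subread, featureCounts and the mouse build mm10 are named in the submitters' processing notes, without versions, strand setting or treatment of multi-mapping reads. As the values show, the authors deposited log2 of RPKM + 1, with 0.0001 added. Low values were whole multiples of 1 read, so library totals and reads per gene were recovered (100% of the 19047 genes with reads, within 0.00001 reads). In a test on simulated data all 4 totals and the reads of 92.4% of 2958 genes were recovered exactly. A count of 0 allows up to 3 reads, and this covers counting error only.

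Genes with at least 0.5226 CPM in 2 libraries and 15 reads in all were tested (14223) with limma 3.58.1 in R 4.3.3 (trend and robust variance, two-sided, Benjamini-Hochberg over all tested genes, threshold 0.05) on log2(RPKM + 1), by genotype alone. The same fit was run after median-ratio scaling, and limma was checked on simulated data. Alternatives were upper-quartile and TMM scaling, other filters, a pseudocount of 0.1, limma-voom on the recovered reads, a replicate block and leaving out each library. On recovered reads limma-voom called 221 genes. Genes were renamed and placed by Entrez identifier from RefSeq GRCm38.p6 (25275 identifiers matched). All 31 members are named, and of the related lists the genes called on the deposited scale, with Il2rb added and 1 called gene not reported here. The members and lists were chosen with earlier results of these data known.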

Additional observations from a re-analysis of the deposited data

How the results depend on the processing

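The 6 called members kept their direction under all alternatives, with log2 differences between 0.68 and 2.99. Leaving out 1 library could not change it, since both Gata3-KO libraries lay above both Ctrl libraries for each, on both scales. Members called numbered 0 with median-ratio, upper-quartile or TMM scaling, without a filter, with limma-voom on either scale, and with the replicate block after median-ratio scaling, and 0 to 0 when a library was left out, on either scale. They numbered 7 above 5 CPM and 4 with a pseudocount of 0.1, where Bid and Casp2 were lost. Over all genes, against 1285 called, median-ratio scaling gave 148, upper-quartile scaling 180 and TMM scaling 179, no filter 0 (4336 at an unadjusted p under 0.05), the filter at 5 CPM 1715, the pseudocount of 0.1 852, limma-voom 221 and limma-voom after median-ratio scaling 91, and leaving out a library gave 0 to 0 on the deposited scale and 0 to 82 after median-ratio scaling (8 without Ctrl replicate 1). The causes of these changes were not tested. Replicate numbers did not pair the libraries (correlation of deviations −0.02). With the replicate block 4 members (Bak1 and Casp2 lost) and 1055 genes were called, and with the replicate block after median-ratio scaling 0 members and 26 genes. Uncalled members changed sign. With median-ratio scaling, with or without the replicate block, the differences were −0.0096 for Bcl2, −0.55 for Bcl2a1d, −0.22 for Apaf1, −0.24 for Diablo and −0.30 for Xiap. With upper-quartile scaling they were −0.042, −0.58, −0.25, −0.27 and −0.32 in that order of genes, and with limma-voom after median-ratio scaling −0.011, −0.61, −0.23, −0.25 and −0.47. With TMM scaling they were −0.53 for Bcl2a1d, −0.21 for Apaf1, −0.22 for Diablo and −0.29 for Xiap. With 1 library left out in turn, differences on the deposited scale ranged over −0.43 to 0.21 for Bcl2l2, −0.15 to 0.034 for Mcl1, −0.32 to 0.36 for Bcl2a1d, −0.10 to 0.28 for Xiap and −0.65 to 0.25 for Birc3. After median-ratio scaling the ranges were −0.27 to 0.25 for Bcl2, −0.065 to 0.17 for Bcl2l1, −0.95 to −0.15 for Bcl2a1d, −0.17 to 1.41 for Bad, −0.17 to 0.45 for Bbc3 and −0.12 to 0.33 for Casp8. They were −0.18 to 0.42 for Casp4, −0.55 to 0.10 for Apaf1, −0.31 to −0.16 for Diablo, −0.44 to −0.15 for Xiap and −0.058 to 0.43 for Birc2. Within these ranges after median-ratio scaling, the values were −0.076 for Bcl2 without Ctrl replicate 1, −0.019 for Bcl2l1 without Gata3-KO replicate 2, −0.77 for Bcl2a1d without Ctrl replicate 2, −0.062 for Casp4 without Gata3-KO replicate 1 and −0.26 for Apaf1 without Gata3-KO replicate 2. They were −0.19 and −0.28 for Diablo without Ctrl replicate 1 and without Ctrl replicate 2, and −0.28 for Xiap without Gata3-KO replicate 2. Depth limits Hrk, Casp12 and Cycs, which had at most 43 reads in a library.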
